A study of Capra hircus with 9 samples.

Results

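Transcripts of 5 genes that supply carbon for fatty acid synthesis, or that govern it through the sterol regulatory element-binding proteins (SREBPs), were described in goat mammary gland. The rule that chose them used their protein descriptions in the authors' deposited table of differential transcripts and no values. It was set with earlier results of these data known. The genes were ACLY, acetyl-CoA carboxylase, SREBF1, SREBF2 and MBTPS1. Together they had 9 of the 9131 transcripts of that table, in 5 of its 6477 assembled components (a component groups assembled transcripts that share sequence). ACLY had 3 transcripts, acetyl-CoA carboxylase and SREBF1 had 2 each, and SREBF2 and MBTPS1 had 1 each. The wording of the rule found 8 of them, and MBTPS1 was added under its own description, a membrane-bound transcription factor protease, site 1. A further SREBF1 transcript was listed by the authors outside the differential table and had no values.

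RNA came from the mammary gland of Xinong Saanen dairy goats, with 3 samples in each of 3 stages. Lactation was day 100 and dry-off day 310 after kidding, and the non-lactation goats were neither lactating nor pregnant. Poly(A)-selected RNA was sequenced from a single end, and the series was made to find genes that matter for fatty acid metabolism in the lactating gland. Nothing in the labels ties the samples of a stage to different goats, so the p-values reflect only how much these samples vary, which may be technical. Only the mean of each stage was given, in RPKM (reads scaled to the length of the transcript and the size of the library). The spread behind each mean and the depth of each sample are therefore unknown, and no SD is printed. A call below means an FDR under 0.05 as the authors deposited it, in the direction of their means.

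Fatty acids are built in the cytosol from acetyl-CoA. ACLY, ATP citrate lyase, makes cytosolic acetyl-CoA from citrate that leaves the mitochondria, while acetyl-CoA synthetase makes it from acetate. In ruminants acetate from the rumen is the main carbon source for milk fatty acids. Acetyl-CoA carboxylase then makes malonyl-CoA, the committed step of the pathway. SREBF1 and SREBF2 encode SREBPs, which are made as precursors in the membrane of the endoplasmic reticulum. When sterols are low they travel to the Golgi in COPII vesicles, where MBTPS1 (site-1 protease) makes the first of the cuts that release the part that enters the nucleus. SREBF1 is known mainly for fatty acid genes and SREBF2 mainly for cholesterol genes.

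The libraries differed in composition between stages. The 3 milk protein transcripts with the descriptions alpha-lactalbumin and GLYCAM1 took 49.9% of the summed mean RPKM of the table at lactation, 0.523% at dry-off and 21.5% at non-lactation. The median transcript of the table had a log2 ratio of 2.09 for dry-off over lactation, 1.39 for non-lactation over lactation and −0.70 for non-lactation over dry-off. The 44 ribosomal protein transcripts had medians of 1.00, 0.39 and −0.62. The RPKM ratios of the 5 genes are read beside these shifts, whose part in the results was not tested. For other genes the ratios and calls are given as deposited. A gene called higher may therefore have risen less than the median transcript. The table was also selected for change, since 93.8% of its transcripts passed an unadjusted p of 0.05 for 1 or more pairs of stages, as did 5 of the 9 transcripts described here. Markers of other cells were measured in the same table, of which 65.9% was called higher in dry-off than in lactation. Of these markers, 6 of 7 macrophage markers, 3 of 4 fibroblast markers, 2 of 4 endothelial markers and 1 of 3 T cell markers were called higher, so that the shares of endothelial and T cell markers were below that of the table. The summed level of the 7 macrophage markers was 70.2 RPKM at lactation, 670 RPKM at dry-off and 267 RPKM at non-lactation. For the 4 fibroblast markers it was 224, 1692 and 1045 RPKM, and for the 4 endothelial markers 24.9, 187 and 113 RPKM. The 3 T cell markers summed to 11.3, 177 and 68.1 RPKM. Of 8 adipocyte markers only LIPE, hormone-sensitive lipase, was in the table, at 1.73, 4.34 and 5.44 RPKM (FDR 0.0140 for dry-off against lactation per the authors' deposited table). Of the luminal markers CDH1 was called higher and LALBA lower in dry-off, and neither of the 2 measured myoepithelial markers, ACTA2 and OXTR, was called. The part of cell makeup in the values below was not tested, and in whole tissue fewer cells of a type and less RNA per cell cannot be told apart.

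The 5 genes did not share a pattern over the stages. ACLY, SREBF2 and MBTPS1 had their lowest mean in lactation and their highest in dry-off, and all 3 were called higher in dry-off than in lactation, although the ratio of SREBF2 turned below 0 (log2 −0.85) once centred on the table median. Acetyl-CoA carboxylase had its lowest mean in dry-off and its highest in non-lactation. SREBF1 was close in lactation and dry-off and highest in non-lactation in the RPKM as deposited. After centring on the table median its log2 ratio to lactation was −1.91 for dry-off and −0.31 for non-lactation. Centring on the ribosomal protein median left its ratio for non-lactation at 0.68, and rescaling without the milk transcripts left it at 0.18. Neither acetyl-CoA carboxylase nor SREBF1 was called in any comparison. Of the 9 transcripts, 5 were called higher in dry-off than in lactation and 0 lower, where 65.9% of the table was called higher and 0.69% lower. Counted by gene this was 3 of 5, a share near the background of a table in which most transcripts rose. Also 5 transcripts were higher at an unadjusted p under 0.05, as 86.9% of the table was.

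**Figure D1:**
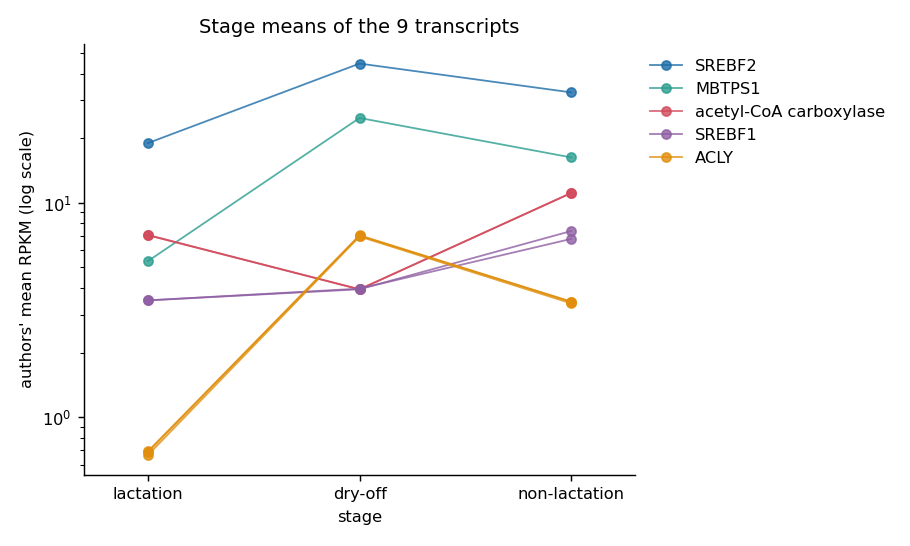
Authors' mean RPKM (log axis) of the 9 transcripts in lactation, dry-off and non-lactation, with 1 line per transcript and 1 colour per gene; no error is drawn because no value per sample was given. SREBF2 is highest in each stage, ACLY is lowest in lactation and non-lactation, and acetyl-CoA carboxylase alone has its lowest mean in dry-off.

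In lactation the order of the mean levels, per transcript length, ran from SREBF2 (18.9 RPKM) through acetyl-CoA carboxylase (7.08 RPKM), MBTPS1 (5.33 RPKM) and SREBF1 (3.50 RPKM) to ACLY (0.685 RPKM) per the authors' deposited table, taking the highest transcript of each gene. In dry-off it ran from SREBF2 (44.5 RPKM) and MBTPS1 (24.8 RPKM) to ACLY (7.05 RPKM), with SREBF1 and acetyl-CoA carboxylase both at 3.94 RPKM. In non-lactation SREBF2 (32.7 RPKM) and MBTPS1 (16.2 RPKM) were followed by acetyl-CoA carboxylase (11.1 RPKM), SREBF1 (7.38 RPKM) and ACLY (3.45 RPKM). ACLY thus moved from the last place in lactation to the third in dry-off, while acetyl-CoA carboxylase moved from the second place to the last, level with SREBF1. With the transcripts of each gene summed, SREBF1 (7.002 RPKM) was above MBTPS1 in lactation, acetyl-CoA carboxylase (22.2 RPKM) was above MBTPS1 in non-lactation, and the order was otherwise as above. Such sums depend on how many transcripts, which share sequence, were assembled for a gene. Whether neighbours in these orders differ beyond their spread could not be tested from stage means. SREBF2 was a high transcript throughout, above 94.5%, 92.9% and 93.7% of the table's transcripts in lactation, dry-off and non-lactation. ACLY in lactation lay above 31.9% of them.

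ACLY had the largest rise of the 5 genes. Its 3 transcripts came from 1 component and had nearly the same means, so they are not independent measurements. The transcript with the highest mean had 0.685 RPKM at lactation, 7.05 RPKM at dry-off and 3.45 RPKM at non-lactation per the authors' deposited table. The others had 0.692, 7.01 and 3.45 RPKM and 0.664, 6.95 and 3.39 RPKM. Each was thus lowest in lactation and highest in dry-off, with non-lactation between. Dry-off was 10.3-fold above lactation for the highest transcript (log2 3.36, FDR 0.0174 per the authors' deposited table), and the 3 log2 ratios ran from 3.34 to 3.39 with FDRs from 0.0160 to 0.0187. Among all ratios of the table, 85.3% were lower, and after centring on the table median the log2 ratio was 1.28. With 1 RPKM added to both means it was 2.26, since the lactation mean was below 1 RPKM. Non-lactation was 5.03-fold above lactation (log2 2.33), which was not called (FDR 0.154, unadjusted p 0.0128 per the authors' deposited table). Non-lactation over dry-off had a log2 ratio of −1.03, also not called (FDR 0.154, unadjusted p 0.00239 per the authors' deposited table).

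Unlike ACLY, acetyl-CoA carboxylase had its lowest mean in dry-off. Its description covers ACACA and ACACB, the cytosolic and the mitochondrial-surface form, which these transcripts could not be assigned to. The 2 transcripts, from 1 component, had 7.08 and 7.05 RPKM at lactation, 3.94 and 3.95 RPKM at dry-off and 11.1 RPKM each at non-lactation per the authors' deposited table. The lactation mean was 1.80-fold the dry-off mean for the higher transcript, a log2 ratio of −0.85 for dry-off over lactation that was not called (FDR 0.141, unadjusted p 0.0901 per the authors' deposited table). Only 1.80% of the table's ratios for that comparison were lower. Non-lactation was 2.82-fold above dry-off (log2 1.49), which was not called (FDR 0.240, unadjusted p 0.0677 per the authors' deposited table), while 98.7% of the table's ratios were lower. Between non-lactation and lactation the log2 ratio was 0.65 (FDR 0.306 per the authors' deposited table). It turned to −0.74 after centring on the table median.

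Side by side, the enzyme that takes carbon from citrate and the enzyme that makes malonyl-CoA stood in reverse order in dry-off. The mean of acetyl-CoA carboxylase was 10.3 times that of ACLY at lactation, 0.559 times at dry-off and 3.22 times at non-lactation. Acetyl-CoA synthetase, the acetate route, had 6.01, 3.68 and 8.33 RPKM per the authors' deposited table, which was 8.78, 0.522 and 2.42 times the mean of ACLY. Its description stands for a family, to whose members these transcripts could not be assigned. The level may therefore not be that of the cytosolic enzyme alone. Over the sums of all their transcripts (8 of acetyl-CoA synthetase, 2 of acetyl-CoA carboxylase and 3 of ACLY) the order of acetyl-CoA synthetase and ACLY in dry-off turned, with ratios of 21.3, 1.28 and 5.90. For acetyl-CoA carboxylase over ACLY the sums gave 6.92, 0.375 and 2.16. Transcripts of 1 component share sequence, so a sum may count the same reads more than once. The sums therefore depend on how many transcripts were assembled for each gene. Such a ratio within a stage does not depend on how the stages are scaled to each other. No test of these ratios could be made from stage means.

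SREBF1 had 3.50 RPKM at lactation, 3.94 RPKM at dry-off and 7.38 RPKM at non-lactation for 1 transcript, and 3.50, 3.97 and 6.78 RPKM for the other, from the same component per the authors' deposited table. Lactation and dry-off lay close together, at a log2 ratio of 0.17 that was not called (FDR 0.469 per the authors' deposited table) and that turned to −1.91 after centring on the table median. Only 2.71% of the table's ratios were lower. Non-lactation over lactation was 1.08 on the log2 scale (FDR 0.248) and non-lactation over dry-off 0.90 (FDR 0.331), neither of them called per the authors' deposited table. For non-lactation over dry-off 97.5% of the table's ratios were lower. After centring on the table median, non-lactation over lactation turned to −0.31 as well. It stayed above 0 after centring on the ribosomal protein median (0.68) and after rescaling to the summed means without the milk transcripts (0.18). In the RPKM as deposited, SREBF1 and acetyl-CoA carboxylase were the only 2 of the 5 genes with a higher mean in non-lactation than in dry-off. Under each of 3 other scalings (to the table median, to the ribosomal protein median and to the summed means without the milk transcripts) the ratios of SREBF2 and MBTPS1 also turned above 0, to between 0.18 and 0.28 and between 0.013 and 0.11 on the log2 scale.

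SREBF2 had 18.9 RPKM at lactation, 44.5 RPKM at dry-off and 32.7 RPKM at non-lactation per the authors' deposited table. It was called higher in dry-off than in lactation, by 2.35-fold (log2 1.23, FDR 0.0428 per the authors' deposited table). This rise was below that of most transcripts, since 15.5% of the table's ratios were lower, and the log2 ratio turned to −0.85 after centring on the table median. Rescaling to the summed means without the milk transcripts turned it to −0.39, whereas centring on the ribosomal protein median left it at 0.23. Non-lactation over lactation (log2 0.79, FDR 0.163) and non-lactation over dry-off (log2 −0.45, FDR 0.292) were not called per the authors' deposited table.

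MBTPS1, the protease that makes the first cut in both SREBPs, had 5.33 RPKM at lactation, 24.8 RPKM at dry-off and 16.2 RPKM at non-lactation per the authors' deposited table. Dry-off was 4.66-fold above lactation (log2 2.22, FDR 0.00490 per the authors' deposited table), and MBTPS1 alone among the 5 genes was called at an FDR under 0.01, as 16.4% of the table was. Its ratio stood near the middle of the table, with 55.3% of ratios lower, and was 0.13 on the log2 scale after centring on the table median. Non-lactation over lactation (log2 1.61, FDR 0.218) and non-lactation over dry-off (log2 −0.61, FDR 0.291) were not called per the authors' deposited table.

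The levels of the 2 SREBP genes and their protease were also set against each other in each stage, without a test. SREBF2 had 5.41 times the mean RPKM of SREBF1 at lactation, 11.3 times at dry-off and 4.43 times at non-lactation. MBTPS1 had 1.52 times the mean of SREBF1 at lactation, 6.29 times at dry-off and 2.20 times at non-lactation. SREBF2 had 3.55, 1.79 and 2.01 times the mean of MBTPS1. With both SREBF1 transcripts summed, MBTPS1 had 0.761, 3.14 and 1.15 times and SREBF2 2.70, 5.62 and 2.31 times the level of SREBF1, so the order of MBTPS1 and SREBF1 turned in lactation. The SREBF1 sum may count shared reads more than once.

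**Figure D2:**
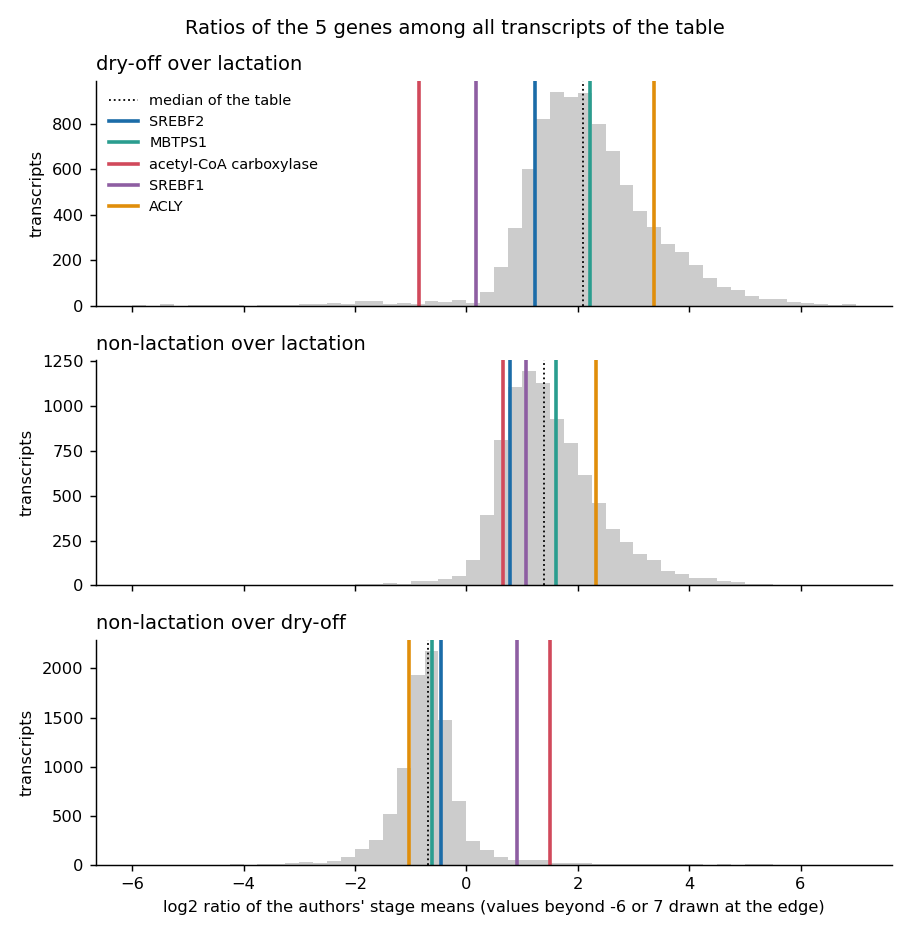
Number of transcripts of the authors' table (y axis) by the log2 ratio of stage means (x axis) in the 3 comparisons, with the highest transcript of each of the 5 genes as a coloured line and the table median dotted. Acetyl-CoA carboxylase (−0.85) and SREBF1 (0.17) stand in the low tail for dry-off over lactation and in the high tail for non-lactation over dry-off, while MBTPS1 stays beside the median.

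In the 2 comparisons with non-lactation none of the 9 transcripts was called. Against lactation the background was 0.011% of the table called higher and 0 lower, and at an unadjusted p under 0.05 the 3 ACLY transcripts and SREBF2 were higher, where 41.5% of the table was. Against dry-off no transcript of the table was called, and at an unadjusted p under 0.05 the 3 ACLY transcripts were lower, where 38.5% of the table was. The 3 comparisons share stage means in pairs, so their ratios for 1 gene are not independent. All 9 transcripts had a higher mean in non-lactation than in lactation, and 7 of 9 a higher mean in dry-off than in lactation. Centring on the table median reversed 5 of the 9 for non-lactation over lactation and 3 of the 9 for dry-off over lactation. Over the 9 transcripts the median log2 ratio was 1.23 for dry-off over lactation, 1.08 for non-lactation over lactation and −0.45 for non-lactation over dry-off, beside table medians of 2.09, 1.39 and −0.70.

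The authors sorted 8396 transcripts of the table into profiles by their course over the stages, and the profiles separated the 5 genes. ACLY, SREBF2 and MBTPS1 were in profile 14, with 5258 transcripts (57.6% of the table), all of them higher in dry-off than in either other stage. Both acetyl-CoA carboxylase transcripts were in profile 6, with 30 transcripts (0.329% of the table). In the RPKM as deposited, all of them were lower in dry-off than in lactation and higher in non-lactation than in lactation. The median log2 ratio of profile 6 for non-lactation over lactation was 0.91, below the table median of 1.39. The higher SREBF1 transcript was in profile 8, with 46 transcripts (0.504% of the table), all of them higher in non-lactation than in the other stages, and the lower one was in no profile.

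The 30 transcripts of profile 6 came from 17 components with 15 descriptions, and 15 of the transcripts carried 4 descriptions on the list of SREBP targets. Such descriptions were carried by 33 transcripts (0.361%) of the whole table. Besides acetyl-CoA carboxylase these were all 8 acetyl-CoA synthetase transcripts, all 4 transcripts of glycerol-3-phosphate acyltransferase, which starts triglyceride assembly, and 1 of 2 stearoyl-CoA desaturase transcripts. Transcripts of 1 component share sequence, so the 15 stand for 6 of the 17 components of the profile. In the whole table the 33 stand for 20 of 6477. The profile was singled out because it held acetyl-CoA carboxylase, which is among the 6, and these shares were not tested. Stearoyl-CoA desaturase, which makes oleic acid from stearic acid, had 179 RPKM at lactation, 25.9 RPKM at dry-off and 498 RPKM at non-lactation and was not called for dry-off against lactation (FDR 0.102 per the authors' deposited table). Its other transcript, outside the profile, was called higher in dry-off. The highest glycerol-3-phosphate acyltransferase transcript had 28.9, 5.01 and 59.2 RPKM and was called lower in dry-off than in lactation (FDR 0.0142 per the authors' deposited table). The profile also held 4 of 4 transcripts of SLC16A1, a carrier of lactate, pyruvate and ketone bodies, which was highest at 6.05, 1.58 and 11.7 RPKM per the authors' deposited table. CD36, a fatty acid carrier, had 21.3, 7.29 and 31.5 RPKM for 1 of its 5 transcripts per the authors' deposited table. A type II pantothenate kinase, which starts coenzyme A synthesis, had 9.04, 4.89 and 22.6 RPKM for 1 of its 5 transcripts per the authors' deposited table. In all, 8 of the 30 transcripts were called lower in dry-off than in lactation, where 0.69% of the table was. All 30 had a lower mean in dry-off by the course of the profile, so no call could be higher. Some of the 8 share a component, and neither acetyl-CoA carboxylase transcript was among them. Profile 6 was defined by the same stage values, so its course is a description with no test.

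**Figure D3:**
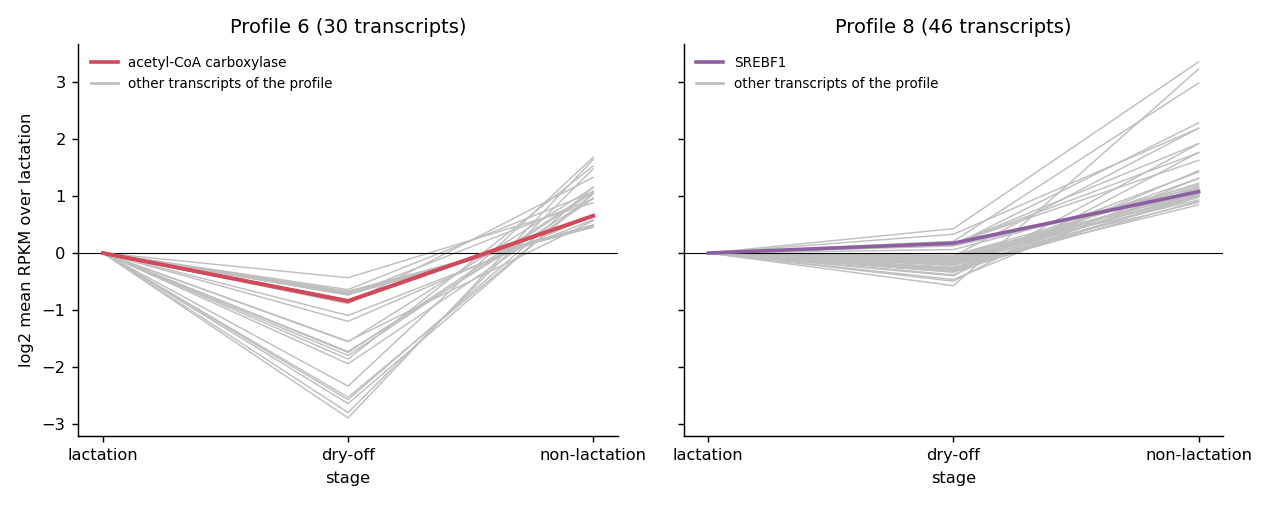
Log2 of the authors' mean RPKM over the lactation mean (y axis) at each stage (x axis) for all transcripts of profiles 6 and 8, with acetyl-CoA carboxylase and SREBF1 in colour and 1 grey line for each other transcript. Acetyl-CoA carboxylase reaches −0.85 in dry-off and 0.65 in non-lactation, a shallower fall than many of its 30 transcripts, and SREBF1 is among the 11 of 46 transcripts of profile 8 that lie above 0 in dry-off.

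The 46 transcripts of profile 8 came from 24 components with 23 descriptions, and 23 of the transcripts were a low affinity IgG Fc receptor with the description IIa. Nearly all of these receptor transcripts came from the same component, so they are not independent measurements. Some others serve milk sugar. Beta-1,4-galactosyltransferase 1, the catalytic part of lactose synthase, had 61.1, 54.5 and 113 RPKM in lactation, dry-off and non-lactation per the authors' deposited table. UDP-glucose 4-epimerase, which makes UDP-galactose, had 2.41, 2.12 and 5.97 RPKM per the authors' deposited table. DHCR7, of the last steps of cholesterol synthesis and a listed SREBP target, had 9.66, 10.5 and 20.4 RPKM per the authors' deposited table, close to the course of SREBF1. No transcript of profile 8 was called for dry-off against lactation.

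The number of transcripts that the authors counted as correlated with each transcript separated the genes in the same way. Both groupings come from the same series, so they are not independent of each other. The 2 acetyl-CoA carboxylase transcripts had 98 and 100 correlated transcripts and the 2 SREBF1 transcripts 151 and 154, per the authors' deposited table. The 3 ACLY transcripts had 7882 to 7892, MBTPS1 had 7971 and SREBF2 had 7999. The table ran from 93 to 8028 with a median of 7544, and 111 of its 9131 transcripts (1.22%) had as many as SREBF1 or fewer. Profile 6 ran from 93 to 114 and profile 8 from 110 to 151. The sources used here do not give the correlation measure or its threshold.

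**Figure D4:**
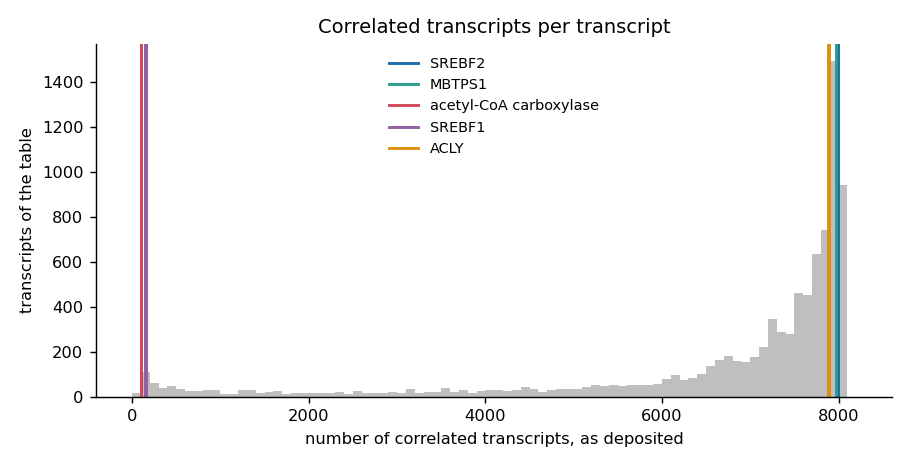
Number of transcripts of the authors' table (y axis) by how many correlated transcripts they list for each (x axis), with the 9 transcripts as coloured lines. Acetyl-CoA carboxylase (98 and 100) and SREBF1 (151 and 154) are at the low end, and ACLY, MBTPS1 and SREBF2 stand among the majority near the upper end.

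For each gene the 3 described transcripts of other components with the most alike course were named by the smallest distance between log2(mean RPKM + 1) values over the 3 stages, each centred on its own mean, among transcripts of similar level. For acetyl-CoA carboxylase they were the CDW92 antigen (distance 0.175) and transcripts of 2 acetyl-CoA synthetase components (0.193 and 0.210) among 3499 candidates. The CDW92 antigen transcript had 5.09, 2.38 and 6.69 RPKM and was called lower in dry-off than in lactation (FDR 0.0474 per the authors' deposited table). For SREBF1 they were a low affinity IgG Fc receptor transcript (0.0765), acetoacetyl-CoA synthetase (0.131) and an AP-1 complex subunit mu (0.142) among 4054 candidates. Acetoacetyl-CoA synthetase, which activates the ketone body acetoacetate for lipid synthesis, had 4.78, 6.17 and 10.001 RPKM per the authors' deposited table. For SREBF2 they were vacuolar protein-sorting-associated protein 4 (0.0155), Rab-5A (0.0330) and the proteasome maturation protein (0.0471) among 908 candidates. For ACLY they were a dimethylaniline monooxygenase (0.0128) and 2 transcripts of calcium/calmodulin-dependent protein kinase II (0.0173 and 0.0249) among 4102 candidates. Without the added 1 RPKM the monooxygenase differed from ACLY, with a log2 ratio of 5.12 for dry-off over lactation against 3.36, while the kinase transcripts had 3.33 and 3.31. For MBTPS1 they were a DnaJ homolog of subfamily B (0.0193), spectrin beta (0.0205) and jumonji domain-containing protein 2 (0.0309) among 1975 candidates. Each course has only 3 values, and profile 14 alone holds 5258 transcripts. The distances of acetyl-CoA carboxylase and SREBF1 to their nearest transcripts were larger than those of the other 3 genes.

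In the separate table of pathway members, ACLY was listed under the citrate cycle and the reductive carboxylate cycle. Acetyl-CoA carboxylase was under fatty acid biosynthesis, pyruvate metabolism, propanoate metabolism and insulin signaling, and SREBF1 was under insulin signaling as well. SREBF2 and MBTPS1 were in no pathway.

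Around the 2 SREBP genes and MBTPS1, 15 of 39 listed genes or gene families of SREBP processing and cofactors had a transcript in the table, and each is represented by its highest transcript. Of these 15, 12 were called higher in dry-off than in lactation and 0 lower, beside 65.9% of the table called higher. Without the 3 genes described above it was 10 of 12. Their median log2 ratio of 1.75 was below the table median of 2.09, and 5 of 15 were above that median, so most had a smaller ratio than the median transcript. SREBF1 had the lowest ratio of the 15. FBXW7, which marks nuclear SREBPs for degradation, had 1.501, 5.70 and 3.88 RPKM in lactation, dry-off and non-lactation (FDR 0.0200 for dry-off against lactation per the authors' deposited table). SAR1A, a GTPase that starts COPII vesicles, had 15.002, 30.6 and 19.9 RPKM (FDR 0.00893 per the authors' deposited table). SAR1B, of the same function, had 2.53, 5.53 and 3.98 RPKM and was not called (FDR 0.0760 per the authors' deposited table).

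SREBPs act on DNA beside cofactors. By their highest transcripts these were called higher in dry-off, as 65.9% of the table was. The subunits NFYA, NFYB and NFYC of the factor NF-Y were called higher with log2 ratios of 1.63, 2.15 and 1.93 (FDRs 0.0252, 0.0422 and 0.0292 per the authors' deposited table). Of these ratios only that of NFYB was above the table median of 2.09. SP1 rose from 2.14 to 11.4 RPKM, with 7.85 RPKM in non-lactation (FDR 0.00800 per the authors' deposited table). The family descriptions of USF1 or USF2, of the coactivators EP300 or CREBBP, and of the lamins were also called higher, with log2 ratios of 1.48, 1.75 and 2.43 per the authors' deposited table. Of these families only the lamins were above the table median. Counted by transcript, 2 of 5 of EP300 or CREBBP and 3 of 4 of the lamins were called. The HSP90 family, chaperones that bind the SREBP precursor complex, had 141, 615 and 327 RPKM and was not called (FDR 0.0513 per the authors' deposited table).

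**Figure D5:**
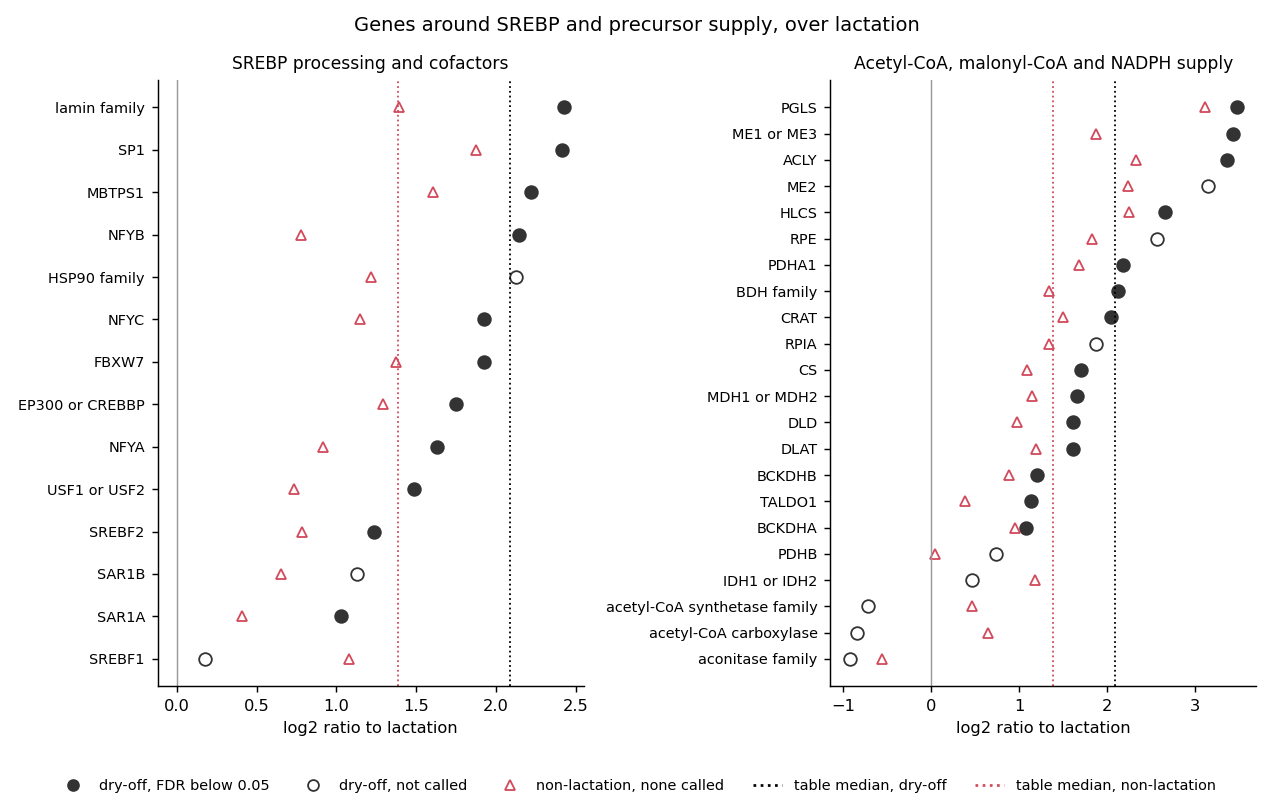
Log2 ratio of the authors' stage means over lactation (x axis) for the highest transcript of each gene drawn of SREBP processing and cofactors and of precursor supply (y axis), with circles for dry-off (filled where FDR was below 0.05), triangles for non-lactation and dotted lines for the table medians (2.09 and 1.39). SREBF1 is the lowest gene for dry-off in the first panel, and acetyl-CoA synthetase, acetyl-CoA carboxylase and aconitase are the 3 below 0 for dry-off in the second.

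Of 42 listed genes that supply acetyl-CoA, malonyl-CoA and NADPH, 23 genes or families had a transcript in the table, and 15 of these 23 were called higher in dry-off than in lactation and 0 lower, beside 65.9% of the table called higher. Without ACLY and acetyl-CoA carboxylase it was 14 of 21. The median log2 ratio of the 23 was 1.71, below the table median of 2.09, and 8 of 23 were above that median. ACLY had the third highest ratio and acetyl-CoA carboxylase the second lowest. The 3 with a lower mean in dry-off than in lactation were the families of aconitase, acetyl-CoA carboxylase and acetyl-CoA synthetase, and none of these was called.

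CS, citrate synthase, which makes the citrate used by ACLY, had 15.4, 50.3 and 32.7 RPKM (FDR 0.0187 for dry-off against lactation per the authors' deposited table). Of the pyruvate dehydrogenase complex, which makes mitochondrial acetyl-CoA from pyruvate, PDHA1 had 4.11, 18.6 and 13.2 RPKM (FDR 0.0143 per the authors' deposited table). DLAT and DLD were called higher with log2 ratios of 1.61 and 1.62 (FDRs 0.0115 and 0.0329), while PDHB was not called at 0.74 (FDR 0.0985) per the authors' deposited table. The ratios of DLAT, DLD and PDHB were below the table median of 2.09. Aconitase, which turns citrate into isocitrate, had 54.0, 28.5 and 36.7 RPKM for its highest transcript and was not called (FDR 0.0839 per the authors' deposited table). Its 3 other transcripts were called higher in dry-off, so its direction depends on the transcript. BCKDHA and BCKDHB, of branched-chain amino acid breakdown, were called higher with log2 ratios of 1.07 and 1.20 per the authors' deposited table. Both ratios were below the table median. CRAT, which moves acetyl groups to carnitine, was called higher with 2.04, and the BDH family of ketone body enzymes with 2.12 per the authors' deposited table. Counted by transcript, 1 of 2 was called for BCKDHA and 1 of 2 for the BDH family. HLCS, which attaches biotin to acetyl-CoA carboxylase and other carboxylases, had 1.55, 9.78 and 7.39 RPKM (FDR 0.00314 per the authors' deposited table). It rose from lactation to dry-off, where acetyl-CoA carboxylase had its lowest mean.

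NADPH, the reductant of fatty acid synthesis, comes from the pentose phosphate pathway, malic enzyme and cytosolic isocitrate dehydrogenase. PGLS, an early enzyme of the pentose phosphate pathway, had 0.993, 11.05 and 8.60 RPKM (FDR 0.00914 per the authors' deposited table). This was the highest ratio of the list for dry-off over lactation, and 1 of the 3 PGLS transcripts was called. TALDO1 was called higher with 165, 361 and 215 RPKM (FDR 0.0395 per the authors' deposited table). Its log2 ratio of 1.13 was below the table median of 2.09. RPIA (log2 1.88, FDR 0.0715) and RPE (log2 2.57, FDR 0.0848) were not called. Malic enzyme with the description of ME1 or ME3 had 0.815, 8.75 and 2.99 RPKM (FDR 0.00647 per the authors' deposited table), and 1 of its 2 transcripts was called. ME2, the mitochondrial form, had 0.691, 6.09 and 3.26 RPKM and was not called (FDR 0.0679 per the authors' deposited table). Malate dehydrogenase, with the family description of MDH1 or MDH2, is on the list but is not among the NADPH sources named above. It had 39.1, 123 and 86.8 RPKM (FDR 0.00652 per the authors' deposited table). Isocitrate dehydrogenase of IDH1 or IDH2, known as a main source of NADPH in ruminant mammary gland, had 33.4, 46.1 and 76.0 RPKM and was not called (FDR 0.117 per the authors' deposited table). Its other transcript, from another component, was called higher in dry-off. In the RPKM as deposited, the highest transcripts of isocitrate dehydrogenase, acetyl-CoA carboxylase and acetyl-CoA synthetase had their highest mean in non-lactation. Their log2 ratios for non-lactation over lactation (1.19, 0.65 and 0.47) were below the table median of 1.39.

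The listed targets of SREBPs had a lower median for dry-off over lactation than these lists. Of 35, 15 genes or families had a transcript in the table, of which 4 were called higher in dry-off than in lactation and 2 lower, beside 65.9% and 0.69% of the table. Without ACLY and acetyl-CoA carboxylase it was 3 and 2 of 13. The median log2 ratio of the 15 was 0.92 for dry-off over lactation, 1.13 for non-lactation over lactation and 0.40 for non-lactation over dry-off, beside table medians of 2.09, 1.39 and −0.70. Of the 15, 12 were above the table median for non-lactation over dry-off, and 3 for dry-off over lactation. ELOVL6, an elongase, FADS2, a desaturase, and NSDHL, of cholesterol synthesis, were called higher in dry-off besides ACLY, with log2 ratios of 2.75, 2.24 and 1.34 per the authors' deposited table. The ratio of NSDHL was below the table median. Glycerol-3-phosphate acyltransferase was among the 2 called lower. Neither of the 2 comparisons with non-lactation had a call on any of the lists.

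Regulators upstream of lipogenesis, such as the insulin and mTOR pathway and the nuclear receptors, were called about as often as the table. Of 47, 33 genes or families had a transcript in it, of which 22 were called higher in dry-off than in lactation and 0 lower, beside 65.9% of the table called higher, and the median log2 ratio was 1.81. The 4 with the smallest FDR were the families of RPS6KB (ribosomal S6 kinase, FDR 0.00283) and PIK3R (regulatory subunits of PI3 kinase, FDR 0.00522), TSC2 (an inhibitor of mTOR, FDR 0.0113) and NCOA2 (a nuclear receptor coactivator, FDR 0.0129) per the authors' deposited table. For PIK3R 4 of 6 transcripts were called.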

How the data were processed

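The authors deposited mean RPKM of each stage and, for each pair of stages, a p-value and an FDR by a test that the file headers do not name. The submitters' processing notes name FastQC and no other tool. The sources used here do not give the assembler, counting method, genome build or depth per sample. No values per sample were in the files used here, so the planned model on samples gave way to the planned use of the deposited FDR, with no test of expression made here. Log2 ratios were computed from the deposited means with nothing added, because the deposited log2 columns held errors and infinite values. All 9129 deposited FDRs for dry-off against lactation were above a Benjamini-Hochberg adjustment over the table alone, which would call 7815 transcripts in place of 6079.

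The 9 transcripts and all lists were chosen with earlier results of these data known. Genes were matched by the wording of the authors' descriptions after the tables had been opened. Of 205 listed symbols, 85 descriptions stood for 1 symbol (81 of them in RefSeq's gene table) and 21 for a family, and reads of family members or of transcripts of 1 component cannot be told apart. The measured genes of SREBP processing and of precursor supply are named, apart from some that are not reported here, and of the other lists up to 4 with the smallest FDR, by their highest transcript. Further transcripts of profiles 6 and 8, the called SREBP targets and the cell markers named singly were named after their values were seen. The GO column beside the descriptions did not match them and was not used. The functions for log2 ratios and for the nearest courses were tested on simulated data, and the other calculations were not. Python 3.11.15, numpy 2.4.6, pandas 2.3.3 and matplotlib 3.10.9 were used.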

Additional observations from a re-analysis of the deposited data

How the results depend on the processing

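For dry-off against lactation, 5 of the 9 transcripts were called, and 5 were also called at an unadjusted p under 0.05, with at least 1 RPKM in the higher stage, or with at least 2-fold. With 1 transcript per component 3 were called, at an FDR under 0.01 only 1 (MBTPS1), and 4 without MBTPS1, an alternative chosen after seeing the data. The comparisons with non-lactation had 0 calls, and at an unadjusted p under 0.05 they had 4 against lactation and 3 against dry-off. A pseudocount of 1 or 0.1 RPKM turned no direction, but with 1 RPKM the log2 ratio of the highest ACLY transcript went from 3.36 to 2.26 for dry-off over lactation and from 2.33 to 1.40 for non-lactation over lactation. Summing the transcripts of a gene, also chosen after seeing the data, turned the order of MBTPS1 and SREBF1 in lactation, of acetyl-CoA synthetase and ACLY in dry-off, and of MBTPS1 and acetyl-CoA carboxylase in non-lactation. These sums depend on the number of transcripts assembled for each gene. Scaling turned some directions. For dry-off over lactation, centring on the table median turned SREBF2 to −0.85 and the SREBF1 transcripts to −1.91 and −1.91. Centring on the ribosomal protein median turned the SREBF1 transcripts to −0.82 and −0.83. Rescaling to the summed means without the milk transcripts, chosen after seeing the data, turned SREBF2 to −0.39 and the SREBF1 transcripts to −1.44 and −1.45. For non-lactation over lactation, centring on the table median turned SREBF2 to −0.60 and SREBF1 to −0.31 and −0.44. It turned acetyl-CoA carboxylase to −0.74 and −0.73. The rescaling turned SREBF2 to −0.11 and acetyl-CoA carboxylase to −0.25 and −0.24, but left the SREBF1 transcripts at 0.18 and 0.053. The ribosomal protein median turned none of the 9 transcripts in this comparison. For non-lactation over dry-off the table median, the ribosomal median and the rescaling turned SREBF2 to 0.25, 0.18 and 0.28 and MBTPS1 to 0.084, 0.013 and 0.11. Under these 3 scalings ACLY kept its direction in all 3 comparisons, as did acetyl-CoA carboxylase in both comparisons with dry-off. No paired analysis was possible because only stage means were given, and for the same reason no replicate was left out in turn.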
